A study of Bos taurus with 34 samples.

Results

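The genes examined here make cholesterol or answer to its level, and the question put to them was whether they rise and fall together between the livers of individual cattle. A list of 31 gene symbols was matched to the deposited comparison of slick with free animals, which left 30 members of the 14161 genes in that table. STARD4, a carrier of sterols between membranes, is the listed gene that the comparison table does not hold under its symbol, and it is described beside the 30. The Ensembl identifiers of the members index both raw count tables, which hold 27607 genes. After a filter on low counts all 30 members stayed among 15222 genes in the TruSeq table and among 14400 genes in the SMARTer table.

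The animals carried 0, 1 or 2 copies of SLICK1, a truncating allele of the prolactin receptor gene that gives cattle a short coat. The breed label is Senepol. In the TruSeq experiment 18 livers came from daughters of 2 bulls: 5 SLICK (1 copy) by Blanco, 5 SLICK by Lone Ranger, 7 FREE (0 copies) by Lone Ranger and 1 FREE by Blanco. In the SMARTer experiment 16 livers came from 5 S1 (1 copy) and 11 S2 animals (2 copies), so that every animal there had the allele. No treatment or age is labelled.

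Each count column is named by an animal number that the sample labels do not carry. Here the TruSeq animals are called T1 to T18 and the SMARTer animals M1 to M16, in the order of the columns, which only names them. Animals were taken as 1 set per experiment, and no library was assigned a genotype or a sire. The part of genotype and sire in the correlations below was not tested.

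Cholesterol is built from acetyl-CoA through mevalonate, farnesyl diphosphate and squalene, and the sterol branch then turns lanosterol into cholesterol. The liver is a main site of this synthesis. When sterol in the endoplasmic reticulum falls, SCAP carries the precursor of SREBP2 to the Golgi, and the freed factor enters the nucleus and switches on genes of synthesis and uptake. INSIG proteins hold SCAP back when sterol is plentiful. The nuclear receptor LXR answers to oxidised sterols and drives export and disposal.

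Total counts ran from 93024441 to 154949152 per library in the TruSeq experiment and from 63795299 to 96098600 in 14 SMARTer libraries. Those 14 had a median Spearman rho of 0.972 to 0.981 with the other SMARTer libraries over all genes. The libraries of animals M6 and M12 stood apart, at 0.70 and 0.640. In CPM, read counts scaled to equal library totals, albumin (ALB) was at 0.67 in M6 and 1257 in M12, against 25028 to 32421 in the 14. The 14 hepatocyte markers measured summed to 2826 CPM in M6 and 3666 in M12, against 74142 to 112019 in the 14. Library M6 held the enterocyte genes KRT20 at 1359 CPM, FABP2 at 1959 and ALPI at 679, genes chosen after their values were seen, of which the 14 held at most 0.03. CPM values of the members below are also scaled by TMM factors. Library M12 held beta globin (HBB) at 147 CPM, against at most 0.53. Both libraries go against the liver label, so SMARTer results are led with the 14 and the values over all 16 are given beside them.

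HMGCS1, the synthase that makes HMG-CoA, served as the anchor against which the members were read from animal to animal. The 17 other enzymes had a median r with it of 0.76 in the TruSeq animals and 0.84 in the 14 SMARTer animals. The 12 members of the other roles (sterol sensing, uptake, transfer and lipin, efflux and esterification) had a median r of 0.21 and 0.27. Of these 12, 0 passed the permutation test in either set (unadjusted p under 0.05 in 3 and 2 of them, and by limma 0 and 1). The level of HMGCS1 in the TruSeq animals was lowest at 329 CPM in animal T3, had a median of 871, and was highest at 1449 in animal T13. Among the 14 SMARTer animals HMGCS1 was lowest at 59.4 CPM in M1, had a median of 95.5 and was highest at 358 in M11. The highest animal thus held 4.41 times the lowest in the TruSeq experiment and 6.03 times in the SMARTer one. Kits and animals differ between the experiments, so levels are not compared across them.

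Pearson r was taken on log2 CPM between HMGCS1 and every other gene tested, with a two-sided permutation test over animals and Benjamini-Hochberg adjustment over all genes. A gene is called at an adjusted p under 0.05. In the TruSeq animals 8 of 29 members were called positive, all enzymes, and 0 negative (1 at an unadjusted p under 0.05), against 0.125% and 0% of the 15221 genes tested. Without the 2 animals farthest from the HMGCS1 median (T3 and T12, the lowest in HMGCS1) 5 members were called. Among the 14 SMARTer animals 3 of 29 members were called positive and 0 negative (0 at an unadjusted p under 0.05), against 0.0271% and 0% of 14741 genes. Over all 16 SMARTer libraries the count was again 3 positive and 0 negative (1 at an unadjusted p under 0.05), against 0.0208% and 0% of 14399 genes. Without the 2 animals farthest from the median among the 14 (M5 and M11, the highest) the count was 0 by this test. With SQLE in place of HMGCS1 as the anchor 4 members were called in the TruSeq animals and 0 in the 14 SMARTer animals. With Spearman rho in place of Pearson r the counts were 9 and 0.

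The permutations can give no p below 1e-05, which limits how many genes can pass over so many tests. At an unadjusted p under 0.05, 14 of the 29 members were positive in the TruSeq animals, against 2.1% of all genes. The same count was 15 in the 14 SMARTer animals, against 2.42% of all genes, and 15 in all 16 libraries, against 3.37%. A slope on HMGCS1 fitted with limma, which has no such bound, called 8 members positive in the TruSeq animals, against 0.138% of genes, and 0 members negative, against 0.0131%. In the 14 SMARTer animals limma called 11 members positive, against 0.122% of genes, and 0 negative, against 0%. In all 16 it called 5 positive, against 0.0347%, and 0 negative, against 0%.

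The widest step between neighbouring HMGCS1 values in the SMARTer animals was 0.76 on the log2 scale, more than the next step of 0.32. It left 9 animals at 59.4 to 119 CPM of HMGCS1 and 5 at 204 to 358 CPM. In the TruSeq animals the widest step, 0.34, set apart T3 alone. Within the 9 SMARTer animals the median r with HMGCS1 was 0.27 over the members and 0.00 over all genes. All 17 other enzymes had a positive r there, from 0.17 to 0.83. The same median over the members was 0.63 in all 14. The 9 animals were set apart by HMGCS1 itself, after its values were seen. A narrower range of the anchor lowers r by itself, so no conclusion is drawn from the lower median. The 5 high animals are too few for an r of their own.

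Of the 7 early enzymes beside the anchor, 4 were called in the TruSeq animals and 1 in the 14 SMARTer animals. MVD, the decarboxylase of mevalonate diphosphate, was at 58.6, 115 and 176 CPM (lowest, median, highest) in the TruSeq animals and at 17, 24.0 and 42.2 CPM in the 14 SMARTer animals. Its r with HMGCS1 was 0.92 in the TruSeq animals (rho 0.93, permutation p = 1e-05, the smallest possible, adjusted p = 0.0117), and 0.89 without the 2 extreme animals. For MVD in the 14 SMARTer animals r was 0.94 (permutation p = 1e-05, adjusted p = 0.0369; rho 0.81, permutation adjusted p = 0.605), and 0.91 without M5 and M11. FDPS, which makes farnesyl diphosphate, was at 122, 245 and 389 CPM in the TruSeq animals, with an r of 0.89 that was called (permutation adjusted p = 0.0117). In the 14 SMARTer animals FDPS was at 26.9, 44.6 and 94.4 CPM, and its r of 0.89 had a permutation adjusted p of 0.116. MVK, the mevalonate kinase, and ACAT2, the cytosolic thiolase that opens the pathway, were also called in the TruSeq animals, at r of 0.90 and 0.87. Their r in the 14 SMARTer animals was 0.71 and 0.84, and neither was called (permutation adjusted p = 0.805 and 0.113). Without M5 and M11 it was 0.49 and 0.73. The limma slope in the 14 SMARTer animals passed for ACAT2 (adjusted p = 0.0391) and not for MVK (adjusted p = 0.689).

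IDI1, the isopentenyl diphosphate isomerase, had an r of 0.76 in the TruSeq animals (permutation adjusted p = 0.0596) and 0.89 in the 14 SMARTer animals (0.107). Neither passed, although the limma slope of IDI1 did in the 14 SMARTer animals (adjusted p = 0.00353). PMVK, the second kinase, had an r of 0.72 in the TruSeq animals and 0.19 in the 14 SMARTer animals, and was called in neither.

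GGPS1 was the enzyme with a negative r in both experiments. It makes geranylgeranyl diphosphate, which leaves the route to sterol for the prenylation of proteins. Its level was low, at 4.55, 6.21 and 8.16 CPM in the TruSeq animals and 2.04, 4.18 and 6.06 CPM in the 14 SMARTer animals. The r of GGPS1 with HMGCS1 was -0.41 in the TruSeq animals (permutation p = 0.0878) and -0.37 in the 14 SMARTer animals (permutation p = 0.198). Animal M11, highest in HMGCS1, was lowest in GGPS1, and without M5 and M11 the SMARTer r was 0.06. Within the 9 lower animals it was 0.35.

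**Figure D1:**
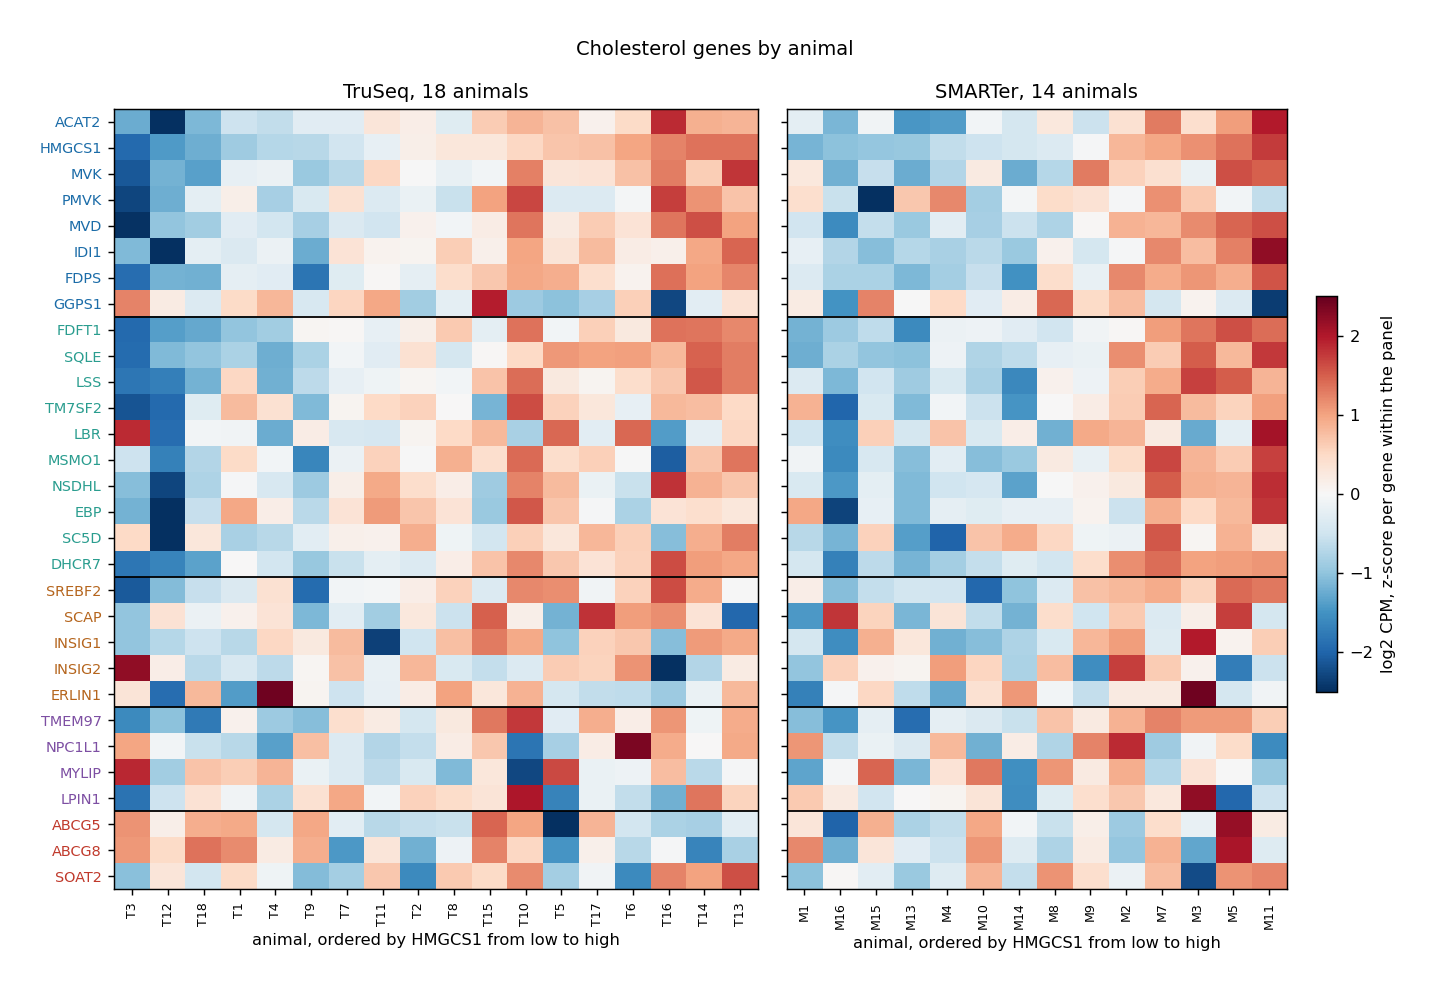
Levels of the 30 members by animal, as z-scores of log2 CPM per gene within each panel, with animals ordered by HMGCS1. Gene names are coloured and boxed by role: early mevalonate pathway, sterol branch, sensing and SREBP2 control, uptake, transfer and lipin, efflux and esterification. Many enzyme rows run from blue to red with HMGCS1 in the 18 TruSeq and the 14 SMARTer animals. Rows that do so less or not at all include GGPS1 (r of -0.41 and -0.37), LBR (0.06 and 0.38) and PMVK (0.72 and 0.19). In the TruSeq animals MSMO1, SC5D and EBP had r of 0.41, 0.45 and 0.46.

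Of the 10 squalene and sterol enzymes, 4 were called in the TruSeq animals and 2 in the 14 SMARTer animals. SQLE, the squalene epoxidase, was at 135, 239 and 372 CPM (lowest, median, highest) in the TruSeq animals and 39.9, 63.8 and 157 CPM in the 14 SMARTer animals. Animal T3 was lowest in both SQLE and HMGCS1 in the TruSeq set, and M1 among the 14 SMARTer animals. The r of SQLE with HMGCS1 was 0.95 in the TruSeq animals (rho 0.94, permutation adjusted p = 0.0117) and 0.96 in the 14 SMARTer animals (permutation adjusted p = 0.0369; rho 0.92, permutation adjusted p = 0.147). It was 0.93 and 0.96 without the 2 animals farthest from the median, and 0.83 within the 9 lower SMARTer animals.

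FDFT1, the squalene synthase, was at 187, 321 and 462 CPM in the TruSeq animals and 71.9, 110.3 and 185 CPM in the 14 SMARTer animals. It was called in both, with r of 0.91 and 0.93. Thus MVD, FDFT1 and SQLE were the members called in the 14 SMARTer animals, and each was also called in the TruSeq animals. Those 3 were likewise the ones called over all 16 SMARTer libraries, at r of 0.85 for MVD, 0.87 for FDFT1 and 0.93 for SQLE.

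DHCR7, the last reductase of cholesterol synthesis, was at 110, 231 and 419 CPM in the TruSeq animals, with an r of 0.92 (permutation adjusted p = 0.0117). Levels of DHCR7 in the 14 SMARTer animals were 24.9, 40.5 and 77.9 CPM, and its r of 0.91 had a permutation adjusted p of 0.0590. LSS, the lanosterol synthase, had r of 0.86 and 0.85, and was called in the TruSeq animals. Its limma slope passed in both sets (adjusted p = 0.00155 and 0.0219). Without T3 and T12 the r of LSS was 0.77 and was no longer called. MVK (0.84) and FDFT1 (0.85) also fell short without those 2 animals, while SQLE, MVD, DHCR7, FDPS and ACAT2 stayed past the threshold.

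The other 6 enzymes of this group were not called in either set by the permutation test. NSDHL, a sterol dehydrogenase, had r of 0.69 in the TruSeq animals and 0.87 in the 14 SMARTer animals. TM7SF2, a sterol reductase, had 0.63 and 0.67, EBP, the sterol isomerase, 0.46 and 0.63, and SC5D, a sterol desaturase, 0.45 and 0.49. Without the 2 animals farthest from the HMGCS1 median in each set, r was 0.32 and 0.63 for TM7SF2 and 0.09 and 0.42 for EBP. It was then 0.56 and 0.81 for NSDHL and 0.44 and 0.46 for SC5D. The permutation test called 0 of these 4 in either set (unadjusted p under 0.05 in 2 and 3 of them). By limma, NSDHL passed in the 14 SMARTer animals (adjusted p = 0.0219). MSMO1, the methylsterol monooxygenase, had r of 0.41 in the TruSeq animals and 0.84 in the 14 SMARTer animals, where its limma slope passed (adjusted p = 0.0219). Its lowest TruSeq animal was T16 at 320 CPM, an animal with 1378 CPM of HMGCS1, and its highest was T10 at 917 CPM. The related reductase LBR, better known as the lamin B receptor, had r of 0.06 and 0.38 and ran only from 8.26 to 15.4 CPM in the TruSeq animals.

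**Figure D2:**
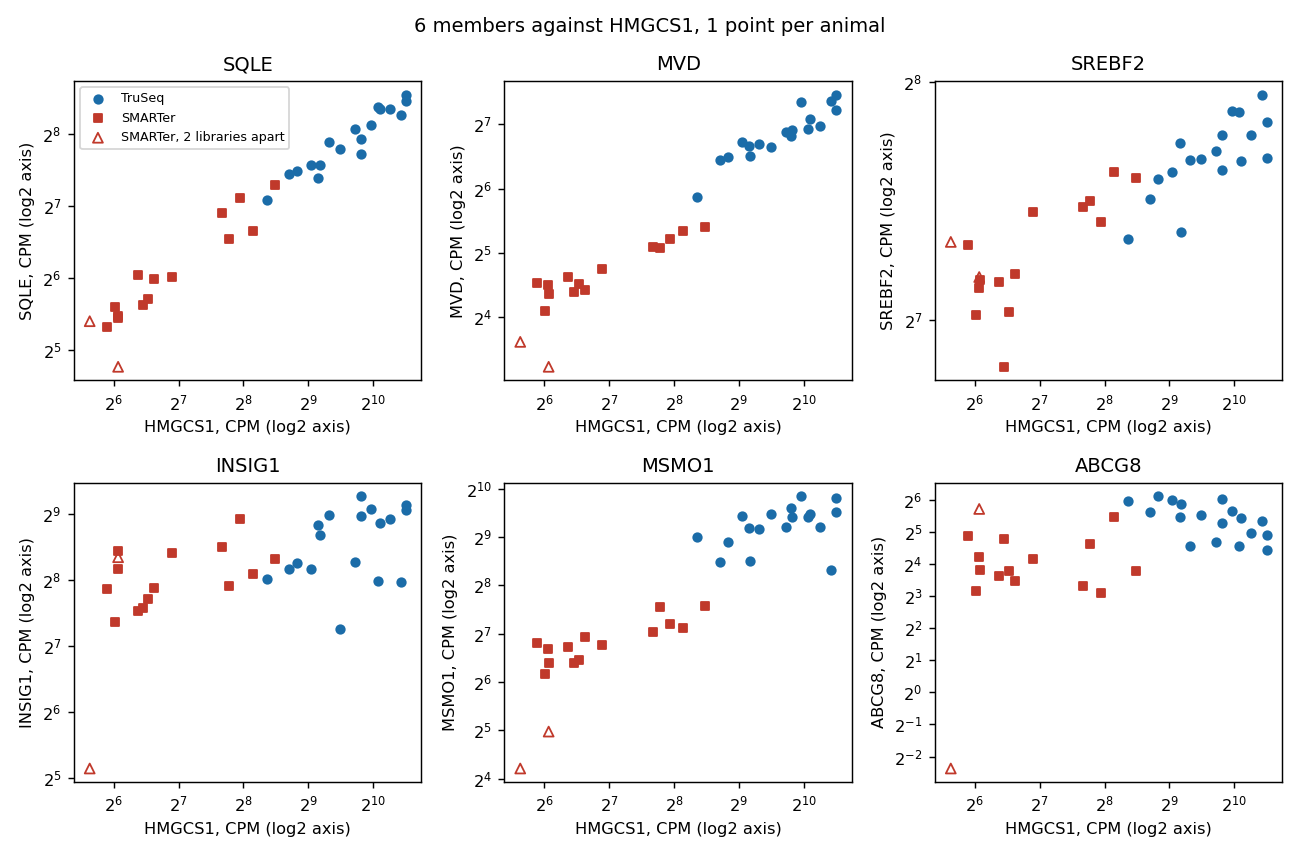
CPM of 6 members against CPM of HMGCS1, 1 point per animal, both axes on a log2 scale. SQLE and MVD follow HMGCS1 in both experiments (r of 0.95 and 0.92 in the TruSeq animals), INSIG1 has r of 0.38 in the TruSeq and 0.52 in the 14 SMARTer animals, MSMO1 has 0.41 and 0.84, and ABCG8 has a negative r in the TruSeq animals (-0.60, not called). Open triangles are the 2 SMARTer libraries that stand apart.

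The animals at the ends were much the same for many enzymes. Of the 18 enzymes in the TruSeq animals, 10 were lowest in T3 and 6 in T12, and T12 was among the 3 lowest animals for 16. The library of T12 was 1 of the 2 TruSeq libraries least like the others, at a median Spearman rho of 0.979. At the other end, T10 was among the 3 highest for 12 enzymes, T14 for 11 and T16 for 10. Some enzymes went the other way: T16 was lowest for 2 and among the 3 lowest for 4, and T3 was highest for 1. Among the 14 SMARTer animals M16 was lowest for 7 enzymes and among the 3 lowest for 14. Animal M11 was highest for 10 of the 18 enzymes and among the 3 highest for 14.

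In the group that senses sterol, the gene of the factor itself had the highest r with the anchor. SREBF2, which encodes SREBP2, was at 162, 205 and 247 CPM in the TruSeq animals and 112, 153 and 197 CPM in the 14 SMARTer animals. Its highest animal held only 1.52 times and 1.77 times its lowest, a smaller range than that of HMGCS1. The r of SREBF2 with HMGCS1 was 0.77 in both (permutation adjusted p = 0.124 in the TruSeq animals and 0.562 in the 14 SMARTer animals), and it was called in neither. SREBF2 had r of 0.82 with DHCR7 in both sets, and 0.82 and 0.86 with MVD.

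INSIG1, which is itself a target of SREBP2, had a wide range. It was at 154, 436 and 619 CPM in the TruSeq animals and 166, 257 and 487 CPM in the 14 SMARTer animals. Its lowest TruSeq animal was T11, which lay near the middle in HMGCS1 at 721 CPM. The r of INSIG1 with HMGCS1 was 0.38 (permutation p = 0.114) and 0.52 (permutation p = 0.0544). By the lower r of the TruSeq and the 14 SMARTer animals, its closest member was MVD, at 0.42 and 0.62.

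INSIG2, the other INSIG gene, was at 8.41, 14.3 and 23.0 CPM in the TruSeq animals and had r of -0.33 there and -0.11 in the 14 SMARTer animals. SCAP was among the steadiest members, at 30.2, 36.1 and 41.6 CPM in the TruSeq animals and 30.7, 33.7 and 38.3 CPM in the 14 SMARTer animals, with r of 0.21 and 0.25. ERLIN1, an endoplasmic reticulum protein of sterol-regulated degradation, had r of 0.00 and 0.38. Of the 5 genes of this group 0 were called in either set, by the permutation test or limma. By the permutation test 1 (SREBF2) had an unadjusted p under 0.05 in each. By limma INSIG1 also did in the 14 SMARTer animals (unadjusted p = 0.0277).

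Among the genes of uptake and transfer, TMEM97, a sterol-binding membrane protein, had r of 0.72 and 0.83 with HMGCS1. It missed the permutation threshold in both experiments, and its limma slope passed in the 14 SMARTer animals (adjusted p = 0.0391). NPC1L1, the importer of free cholesterol, was low at 2.55, 4.06 and 7.50 CPM in the TruSeq animals and 3.46, 4.64 and 6.97 CPM in the 14 SMARTer animals, with r of 0.22 and -0.09. Animal M6 held 327 CPM of NPC1L1, beside its enterocyte genes. MYLIP, a ubiquitin ligase that LXR induces, was at 11.9, 14.8 and 18.2 CPM in the TruSeq animals and 8.32, 10.7 and 13.2 CPM in the 14 SMARTer animals, with r of -0.27 and -0.04.

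LPIN1, a phosphatidate phosphatase of lipid synthesis, had the widest range of the members in the TruSeq animals, from 9.93 to 75.7 CPM, a ratio of 7.62. It ran from 126 to 877 CPM in the 14 SMARTer animals, where the ratio was 6.96. Its r with HMGCS1 was 0.26 and -0.01. STARD4, outside the 30, had r of -0.10 and 0.14 and ran from 13.3 to 22.8 CPM and from 26.1 to 53.9 CPM.

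The exporters had a high r with each other and a low or negative one with the anchor. ABCG5 and ABCG8 form 1 transporter that sends sterols into bile, and they lie head to head on chromosome 11 of ARS-UCD1.2, at 26047011 to 26079187 on the minus strand and 26078726 to 26097141 on the plus strand. Their annotated ends overlap, and strand-aware counting is stated in the header of the SMARTer table only. The r between ABCG5 and ABCG8 was 0.79 in the TruSeq animals and 0.85 in the 14 SMARTer animals. ABCG8 was at 21.8, 43.5 and 68.8 CPM in the TruSeq animals and 8.46, 13.9 and 44.0 CPM in the 14 SMARTer animals. Its r with HMGCS1 was -0.60 in the TruSeq animals (rho -0.62, permutation p = 0.00944, adjusted p = 0.911), and -0.56 without the 2 extreme animals. The r of ABCG8 in the 14 SMARTer animals was 0.06 (permutation p = 0.829), so the negative sign appeared in 1 experiment only and passed in neither. ABCG5 had r of -0.46 and 0.34. SOAT2, which esterifies cholesterol for storage and secretion, ran from 7.41 to 29.4 CPM in the TruSeq animals, with r of 0.38 there and 0.28 in the 14 SMARTer animals.

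**Figure D3:**
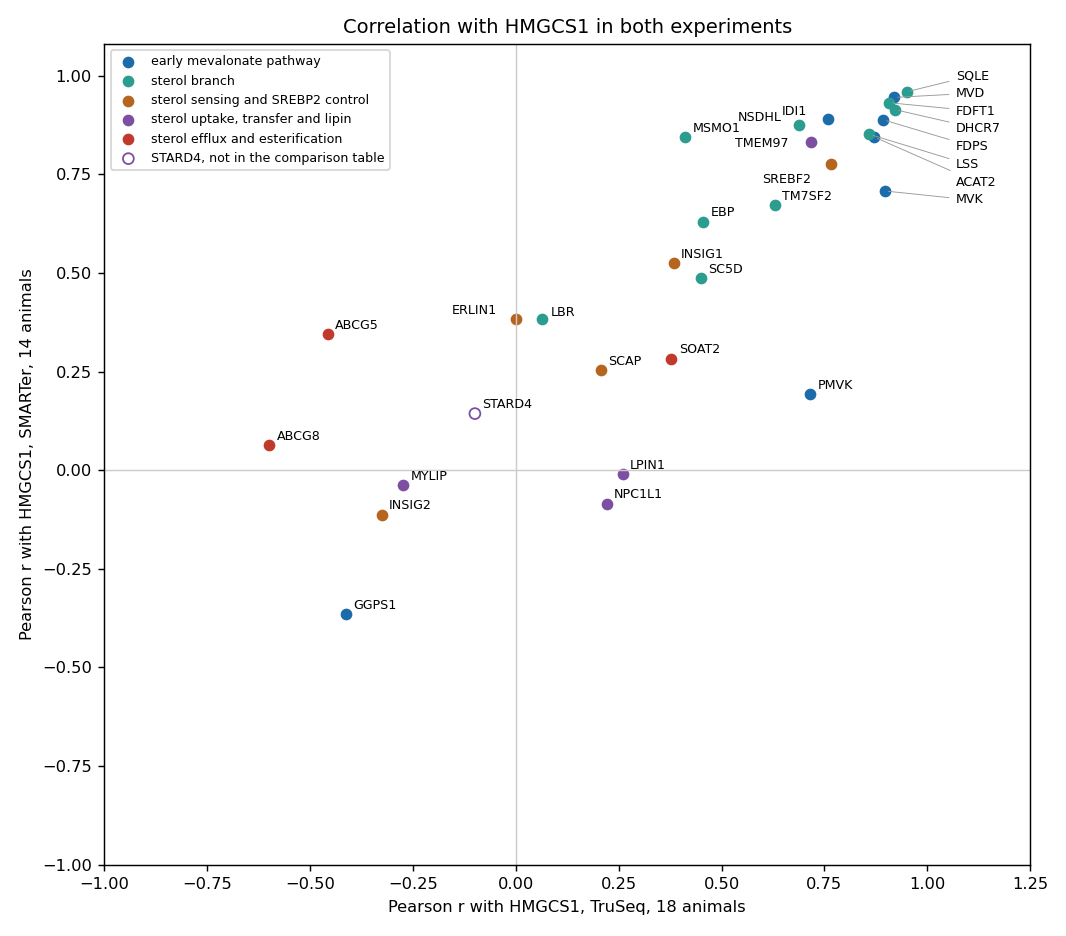
Pearson r of each member with HMGCS1 in the 18 TruSeq animals (horizontal axis) and in the 14 SMARTer animals (vertical axis), coloured by role. SQLE, MVD, FDFT1, DHCR7 and FDPS crowd the upper right corner at r of 0.89 or more in both, GGPS1 lies at the lower left, and ABCG8 lies at -0.60 and 0.06.

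Taking all pairs of the 30 members, the median r was 0.25 in the TruSeq animals (jackknife SE over animals 0.086) and 0.28 in the 14 SMARTer animals (SE 0.064), against 0.00 for all pairs of genes in both. Of the 435 pairs, 92 (21.1%) had an r of at least 0.7 in the TruSeq animals, against 0.475% of all gene pairs. For the 14 SMARTer animals 102 pairs (23.4%) did, against 0.489%. Over all 16 SMARTer libraries the median was 0.53 with an SE of 0.34, and 9.25% of all gene pairs reached 0.7, so the 2 libraries that stand apart set much of that value. The TruSeq and the 14 SMARTer animals shared 76 such pairs, which is 82.6% of the TruSeq pairs and 74.5% of the SMARTer pairs. The same overlap was not counted over all gene pairs, so these 2 shares have no background to be read against.

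The shared pairs held 18 genes. FDPS, DHCR7 and MVD were in 13 each and IDI1 in 12. HMGCS1, ACAT2, LSS and NSDHL were in 11, FDFT1 in 10, SQLE and TM7SF2 in 9, MVK and SREBF2 in 8, and TMEM97 in 7. EBP was in 3 and MSMO1 in 1. The pair of ABCG5 and ABCG8 was the only one outside that set of genes.

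Among the 153 pairs of enzymes the median r was 0.67 in the TruSeq animals and 0.71 in the 14 SMARTer animals, and 47.7% and 51.6% of those pairs reached 0.7. In the TruSeq animals the median was 0.76 within the early group, 0.57 within the sterol group and 0.68 across them, and 71.4%, 31.1% and 48.8% of those pairs reached 0.7. The corresponding medians in the 14 SMARTer animals were 0.70, 0.73 and 0.72. Within the group of sterol sensing the median over 10 pairs was 0.03 in the TruSeq animals and 0.08 in the 14 SMARTer animals. Pairs of an enzyme with an exporter or SOAT2 had a median of -0.26 in the TruSeq animals and 0.27 in the 14 SMARTer animals. A first component of the 30 members held 48.1% of their variance in the TruSeq animals and 48.0% in the 14 SMARTer animals.

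Ranked by the lower of the r with HMGCS1 in the TruSeq and the 14 SMARTer animals, 11 of the 20 highest of 13986 genes were members, and 13 of the 50 highest. SQLE was at rank 2, MVD at 3 and DHCR7 at 4. Outside the members, ranked over all 16 SMARTer libraries, genes most like HMGCS1 included CYB5B, with r of 0.78 in the TruSeq animals and 0.84 in the 14 SMARTer animals, GPX4 (0.86 and 0.87), ACACA (0.91 and 0.75) and SLC5A6 (0.74 and 0.60). CETN2 (0.66 and 0.82), ELOVL6 (0.69 and 0.71) and YME1L1 (0.68 and 0.55) followed. This order includes the 2 libraries that stand apart. By the 14 SMARTer animals PCYT2, an enzyme of phosphatidylethanolamine synthesis, would stand above CYB5B, with r of 0.92 and 0.79, a gene named after its values were seen. CYB5B is a cytochrome of the outer mitochondrial membrane, GPX4 a peroxidase of membrane lipids, ACACA the carboxylase that commits acetyl-CoA to fatty acids, and ELOVL6 an elongase.

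Genes of fatty acid synthesis, mainly targets of the sister factor SREBP1, were a second list read against the anchor. Of 15 listed genes tested in the TruSeq animals 14 had a positive r with HMGCS1, with a median of 0.63, and 4 were called: ACACA at 0.91, ACLY at 0.87, FASN at 0.86 and ACSS2 at 0.84. For the 14 genes tested in the 14 SMARTer animals the median was 0.53, and 0 were called (7 at an unadjusted p under 0.05, 1 by limma). SREBF1, the gene of SREBP1, had r of -0.14 and 0.49. Genes of bile acid synthesis and LXR targets had a median r of 0.09 in both sets over 15 genes, and 0 were called (2 and 1 at an unadjusted p under 0.05, 0 by limma).

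Measures of the libraries were correlated with HMGCS1 in the same way, and 0 passed. Total counts, the mitochondrial share and the mean levels of cell type markers made 8 measures per set of animals. Their r with HMGCS1 lay between -0.24 and 0.29 in the TruSeq animals (rho -0.22 to 0.21, lowest permutation adjusted p = 0.981) and between -0.48 and 0.43 in the 14 SMARTer animals (rho -0.18 to 0.47, lowest permutation adjusted p = 0.485). Of 10 macrophage markers 1 had a positive r in the 14 SMARTer animals, where their median was -0.40, and of 10 in the TruSeq animals 7 did, with a median of 0.10. Summed macrophage markers ran from 731 to 1942 CPM in the 14 SMARTer animals, with 0 of the 10 markers at 0. Of 9 endothelial markers 2 had a positive r in the 14 SMARTer animals, with a median of -0.23, and of 10 T and NK cell markers 2 did, with a median of -0.14. Their medians in the TruSeq animals were 0.06 and 0.19. In the 14 SMARTer animals the mean of the macrophage markers had r of -0.48, and -0.06 without the 2 animals farthest from the HMGCS1 median. The same step took the endothelial mean from -0.23 to 0.02 and the T and NK cell mean from -0.03 to -0.31. Summed endothelial markers ran from 721 to 1105 CPM in the 14 SMARTer animals, and T and NK cell markers from 19.8 to 42.7 CPM, with 0 of either list at 0. The median r of 14 hepatocyte markers was -0.16 in the TruSeq animals and 0.15 in the 14 SMARTer animals. The part of these in the members' r was not tested. In bulk liver, fewer cells of a type and less RNA per cell cannot be told apart.

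The remaining comparison asks whether the members differ between SLICK and FREE daughters, and it comes from the authors alone. Of the 30 members, 0 passed an adjusted p under 0.05 in the authors' deposited table, against 0.501% of all genes. At an unadjusted p under 0.05, 2 members of the authors' deposited table passed, both higher in SLICK, against 16% of all genes in either direction. A share of 2 in 30 is no more than that background. The sign was read from the table's name, and sire is partly confounded with genotype in the labels.

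EBP led the members by p in the authors' deposited table, with a log2 fold change of 0.43 (approximate SE 0.13, p = 0.00358, adjusted p = 0.110). TM7SF2 came second in the authors' deposited table at 0.30 (approximate SE 0.13, p = 0.0351, adjusted p = 0.277), and NSDHL followed at 0.35 (approximate SE 0.18, p = 0.0649, adjusted p = 0.362). These approximate errors are the fold change over the square root of the table's F. HMGCS1, SQLE, SREBF2 and INSIG1 stood at 0.09, 0.22, 0.05 and -0.13 in the authors' deposited table, and their adjusted p lay between 0.645 and 0.928.

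By sign, 21 of 30 members were above 0 in the authors' deposited table, against 48.2% of all genes, and their median was 0.07 against -0.01. All 10 genes of the sterol branch were above 0 in the authors' deposited table, with a median of 0.23, down to LBR at 0.00018. Of the 8 early genes 7 were above 0 in the authors' deposited table, with a median of 0.09, and GGPS1 was at -0.18. ABCG8, SOAT2 and ABCG5 were all below 0 in the authors' deposited table, at -0.42, -0.24 and -0.22. The largest values in the authors' deposited table were 0.54 for LPIN1 and -0.42 for ABCG8, with adjusted p of 0.40 and 0.495. Of the 153 enzyme pairs 47.7% had an r of at least 0.7 between the TruSeq animals, so the signs of single enzymes are not independent observations. The members and role groups were chosen with a lean of cholesterol genes towards higher values in SLICK already known. These counts by sign restate that lean and do not test it.

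**Figure D4:**
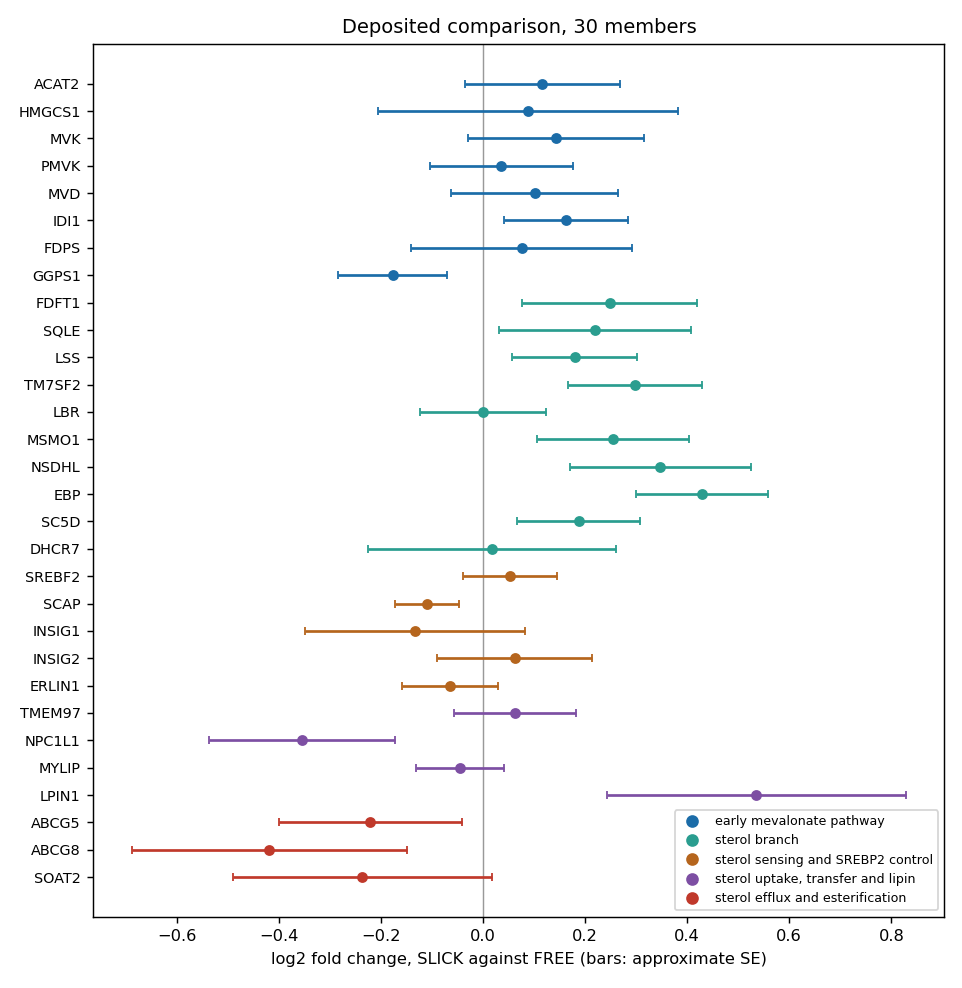
Log2 fold change of each member, SLICK against FREE, in the authors' deposited table, coloured by role, with bars of 1 approximate SE. The 10 sterol branch genes lie at or above 0 and EBP is the highest of them at 0.43, while ABCG5, ABCG8 and SOAT2 lie below 0. None passed the adjusted threshold, and the members and role groups were chosen with a lean towards higher values in SLICK already known.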

How the data were processed

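Bovine liver RNA was extracted with an RNeasy Plus Universal kit and made into TruSeq Stranded mRNA or SMARTer Stranded Total RNA libraries, per the labels' protocols. Tools and builds in the submitters' processing notes are ARS-UCD1.2, HISAT2 2.1.0, Subread, featureCounts and edgeR, with no role or order. Raw counts per gene were deposited for both experiments. The header of the SMARTer table names featureCounts 1.6.2, Ensembl release 100, paired reads, mapping quality of at least 10 and counting by strand, per the file headers. The authors also deposited a CPM table whose column sums run from 848621 to 1130028, which was treated as a scaled score, and a comparison of slick with free animals with log2 fold change, average log2 CPM, F score, p-value and adjusted p-value. The sources used here do not give its model terms. It has 18 columns of per-animal values that were not used. It names 18 animals, of which 17 are in the TruSeq count table.

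Counts were filtered with edgeR 4.0.16 (filterByExpr, 1 group, minimum count 10), scaled by TMM and put on the log2 CPM scale with a prior count of 2. Pearson r with HMGCS1 was tested with 100000 permutations of the animals, two-sided, with Benjamini-Hochberg adjustment. Alternatives used DESeq2 1.42.0 size factors, other prior counts, no filter, Spearman rho and SQLE as anchor, a pseudocount of 0.5 on the deposited scaled score, and limma 3.58.1. Depth limits counting error only, and the kits select RNA differently, so levels were not compared between experiments. R 4.3.3, Python 3.11.15 and scipy 1.17.1 were used. The labels do not say how the samples of a group were obtained beyond sire. The permutation p-values take the animals of a set as exchangeable, whatever their genotype or sire, and speak for these animals only.

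The members, role groups and lists were chosen with earlier results of these data known, and that cholesterol genes leaned higher in SLICK was among them. All members were named. Full values were given to HMGCS1, SQLE, INSIG1, SREBF2, the 5 members with the highest and the 5 with the lowest r in both experiments, the 3 with the smallest deposited p, and up to 10 genes outside the members most like HMGCS1. The lowest 5 differ between the 14 and the 16 SMARTer libraries, and both choices were described. A few genes picked by that rule are left out. The deposited CPM, planned as CPM, was used as a scaled score.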

Additional observations from a re-analysis of the deposited data

How the results depend on the processing

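No paired analysis was possible because the count columns carry no replicate numbers. For the TruSeq animals the count of called members (8) was 9 with library size scaling or Spearman rho, 8 under the other scalings, priors, filter, the deposited scaled score, residuals after the first principal component, limma, and without the animal the comparison table lacks, and 7 without the 2 libraries least like the others, where LSS was lost. It was 5 without the 2 animals farthest from the median of HMGCS1 and 4 with SQLE as anchor. The median pairwise r of 0.25 was 0.34 with library size scaling and lay between 0.18 and 0.26 under the other settings. For all 16 SMARTer libraries the count (3) was 0 with library size scaling, no filter, Spearman rho, SQLE as anchor, or without the 2 farthest animals. It was 5 after the first principal component and 5 with limma. Without the 2 libraries that stand apart it was 3, 4 after the first component, 11 with limma, and 0 with SQLE, Spearman rho or 2 further animals left out. The permutations can give no p below 1e-05, and the cause of the counts of 0 was not tested. The SMARTer median pairwise r kept its sign under every setting, between 0.27 and 0.55. At an unadjusted p of 0.05 the deposited count was 2 in place of 0, and a bound on the average level left every member and the median of 0.07 as they were. Leaving out libraries, the limma slopes and the animals below the widest gap were chosen after seeing the data. For single members 313 of 319 TruSeq and 327 of 348 SMARTer values kept their side of the threshold, and none changed sign while called.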

Other observations

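Within the TruSeq animals, SC5D had the highest median level of the members per kilobase of exon, at 325 RPKM, and NPC1L1 the lowest, at 0.979 RPKM. Within the 14 SMARTer animals the same genes stood at the ends, at 163 and 1.10 RPKM.

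In animal M6 the efflux and esterification members were high beside NPC1L1, at 52.4 CPM for ABCG8, 42.4 for ABCG5 and 61.0 for SOAT2. The 14 SMARTer animals reached at most 44.0, 31.5 and 8.54. MYLIP was also above the 14, at 50.2 CPM against at most 13.2. So were SCAP, at 52.7 CPM against at most 38.3, and LBR, at 28.0 CPM against at most 24.4. TMEM97 was below them, at 36.7 CPM against at least 48.2. Most enzymes were below them too: ACAT2, MVK, PMVK, MVD, IDI1, FDFT1, SQLE, LSS, TM7SF2, MSMO1, NSDHL, EBP and SC5D. TM7SF2 was at 2.46 CPM against at least 66.4, and SQLE at 27.2 CPM against at least 39.9. LPIN1 at 130 CPM, STARD4 at 29.7 CPM and HMGCS1 at 67.0 CPM in M6 lay within the range of the 14, as did FDPS, DHCR7 and GGPS1.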
